A study of Mus musculus with 6 samples.

Results

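Integrins are cell-surface adhesion receptors made of an alpha and a beta chain, and 10 mouse genes for chains used by leukocytes and by blood stem and progenitor cells are described here. They were chosen by name and with earlier results of these data known: Itga4, Itga5, Itga6, Itgal, Itgam, Itgav, Itgb1, Itgb2, Itgb5 and Itgb7. All 10 were found among the 20097 genes listed for each library. RNA came from mouse bone marrow cells that carry c-Kit, the receptor encoded by Kit, a fraction rich in progenitors. By the labels 3 libraries are WT and 3 are Runx1 KO, with Runx1, a transcription factor gene of blood cells, knocked out; age, sex, the driver and timing of the deletion, and any treatment are not given in the sources used here. Nothing in the labels says that the 3 libraries of a group came from separate animals, so p-values measure the spread between these libraries, which may be technical.

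An integrin reaches the surface only as a pair, so a chain is limited by its partners. The chain alpha4 pairs with beta1 to bind VCAM1 and fibronectin in the marrow niche, and with beta7 to bind MADCAM1 in gut vessels. The chains alpha5 and alpha6 pair with beta1 as receptors for fibronectin and laminin. Beta2 is found on leukocytes, where it pairs with alphaL (LFA-1, a receptor for ICAMs) and with alphaM (Mac-1, or CD11b, abundant on neutrophils and monocytes). The chain alphav pairs with beta1, beta3, beta5 and other beta chains to bind vitronectin and latent TGF-beta.

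Each library held between 23297526 and 26793380 reads over the listed genes. Values are normalised read counts, that is reads scaled by the library's own size factor. The limit that a count of 0 allows (3 reads, for counting error only, as PCR copies were not marked by molecular identifiers) was at most 3.14 normalised reads. The fraction carried its defining markers: Kit was at 7979, 8455 and 8471 in the WT libraries and at 11507, 13684 and 12756 in the libraries labelled Runx1 KO. Runx1 itself was at 3031, 2799 and 3497 in the WT libraries and at 6648, 6720 and 5830 in those labelled Runx1 KO, so its transcript went against the label; values per gene do not show whether an exon was missing, and changes are given as Runx1 KO relative to WT by label alone. WT replicate 1 stood apart, with the highest sums of the late neutrophil, monocyte and B-lymphoid markers, and Runx1 KO replicate 1 lay nearest to the WT libraries in these sums.

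The chains changed in opposite directions. Of the 10, 7 had an adjusted p under 0.05 (limma, over all genes tested), against 21.9% of the 15410 genes tested. Itga4, Itga5 and Itga6, all partners of beta1, rose, where 10.6% of all genes were called higher. Itgam, Itgb2, Itgb7 and Itgb5 fell, where 11.3% of all genes were called lower. Itgal, Itgav and Itgb1 did not pass. Of the called chains Itgam and Itgb2 had a log2 change of 1 or more in size, against 7.79% of all genes called with such a change. The groups did not overlap in 7 of the 10 chains, against 43.3% of all genes tested, and the median log2 change was -0.28 over the 10 chains and 0.00 over all genes. Scaling to library totals, which raised all genes by a median of 0.082 on the log2 scale, gave 6 calls among the 10 and moved the share of higher calls over all genes from 48.4% to 63.5%.

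**Figure D1:**
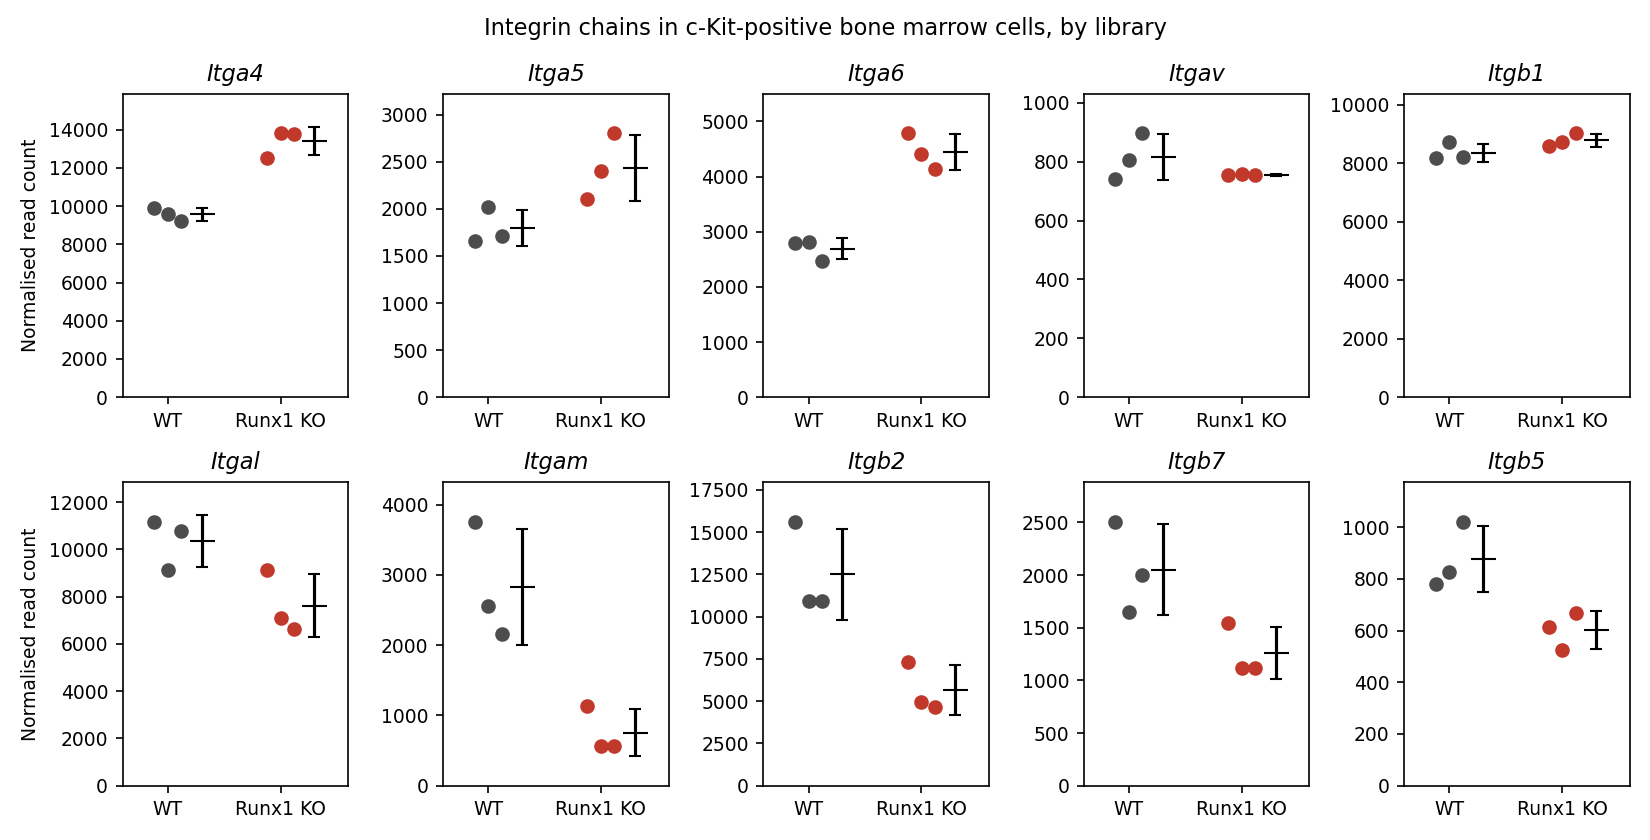
Normalised read count (vertical axes from 0) of the 10 integrin chains in each library, with WT in grey and Runx1 KO in red; the black bar and whiskers give the mean ± SD of 3 libraries. Itga4, Itga5 and Itga6 lie higher in every Runx1 KO library than in any WT library, Itgam, Itgb2, Itgb7 and Itgb5 lie lower, and the groups meet or overlap for Itgav, Itgb1 and Itgal.

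Promoter windows were examined because the series title names RUNX1 and GATA2 and because chains moved as groups. RefSeq windows on GRCm38.p6 were at hand for 7 of the 10 genes and not for Itga6, Itgal and Itgb2, and the 250 bases before the start were searched on both strands for RUNX letters (TGTGGT or TGCGGT), for GATA letters (AGATAA or AGATAG or TGATAA or TGATAG) and the PU.1 core of ETS sites (GAGGAA), none of which contains another. Over 32851 windows of the same length the shares with a match were 18.6%, 26.5% and 23.3%. Of the 7 chains, 1 had RUNX letters, 1 GATA letters and 4 the PU.1 core. The 4 windows below show the chain with the RUNX match (Itga4, which rose), the called chain with a pair of PU.1 cores (Itgam, which fell), the chain with the GATA match (Itgb7, which fell) and the shared beta chain that did not pass (Itgb1); capitals mark the matches and each line runs 5′ to 3′ on the gene's strand.
Itga4, chr2:79255176-79255425, plus strand: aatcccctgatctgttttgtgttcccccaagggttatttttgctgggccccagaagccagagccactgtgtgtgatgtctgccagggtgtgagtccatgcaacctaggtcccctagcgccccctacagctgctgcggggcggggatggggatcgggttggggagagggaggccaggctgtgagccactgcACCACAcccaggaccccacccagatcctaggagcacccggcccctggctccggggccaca
Itgam, chr7:128062390-128062639, plus strand: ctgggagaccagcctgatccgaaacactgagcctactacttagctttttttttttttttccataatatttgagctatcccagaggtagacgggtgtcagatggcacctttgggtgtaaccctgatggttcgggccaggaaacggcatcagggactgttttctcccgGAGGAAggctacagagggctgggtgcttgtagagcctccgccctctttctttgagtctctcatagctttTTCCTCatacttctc
Itgb7, chr15:102231936-102232185, minus strand: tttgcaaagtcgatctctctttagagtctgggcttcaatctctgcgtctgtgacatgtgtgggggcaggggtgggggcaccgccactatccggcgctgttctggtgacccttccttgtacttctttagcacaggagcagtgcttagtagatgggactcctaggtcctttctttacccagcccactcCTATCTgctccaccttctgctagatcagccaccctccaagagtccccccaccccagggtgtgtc
Itgb1, chr8:128685404-128685653, plus strand: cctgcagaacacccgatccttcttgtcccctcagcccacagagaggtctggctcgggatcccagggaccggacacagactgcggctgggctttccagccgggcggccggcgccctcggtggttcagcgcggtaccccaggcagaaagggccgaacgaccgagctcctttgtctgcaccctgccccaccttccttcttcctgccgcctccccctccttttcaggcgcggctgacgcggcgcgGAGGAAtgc
The RUNX letters of Itga4 lie on the opposite strand and begin 60 bases before the start. In Itgam the PU.1 core begins 84 bases before the start on the gene's strand and 15 bases before it on the other strand. The GATA letters of Itgb7 begin 64 bases before the start on the opposite strand, and the PU.1 core of Itgb1 begins 9 bases before the start. The core was also matched in Itga5, which rose, and in Itgav, which did not pass; a match is a run of letters and not a measured binding site.

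Itga4 (ENSMUSG00000027009; GRCm38 chromosome 2, 79255426 to 79333123, plus strand, protein coding) encodes the alpha4 chain, through which progenitors hold to VCAM1 on stromal cells, and its window above is the one with RUNX letters. It was at 9895, 9561 and 9234 normalised reads in the WT libraries and at 12537, 13817 and 13795 in the libraries labelled Runx1 KO. Every Runx1 KO library was above every WT library, and the spread within a group was small beside the gap. The means were 9563 ± 330 and 13383 ± 733 (SD, n = 3), a ratio of 1.40 and a log2 change of 0.48 (SE 0.06, limma adjusted p 0.00381). Leaving out any library kept the call, with log2 changes from 0.46 to 0.53. Exons of Cerkl on the other strand overlap 8.04% of its exon bases, and whether counting used strand is not given in the sources used here.

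Itga6 (ENSMUSG00000027111; chromosome 2, 71745616 to 71858416, plus strand) encodes the laminin-binding alpha6 chain, also known as CD49f and present on blood stem cells and on platelets. Its values were 2804, 2807 and 2470 in the WT libraries and 4788, 4416 and 4139 in those labelled Runx1 KO. This was the largest rise among the 10 chains, by a ratio of 1.65 between the means of 2694 ± 194 and 4448 ± 325 (SD, n = 3). The log2 change was 0.72 (SE 0.08, limma adjusted p 0.00273) and ran from 0.66 to 0.77 when each library was left out, all 6 fits keeping the call.

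Itga5 (ENSMUSG00000000555; chromosome 15, 103344286 to 103366763, minus strand) encodes the alpha5 chain of the classical fibronectin receptor. It was at 1659, 2017 and 1716 in the WT libraries and at 2102, 2405 and 2805 in those labelled Runx1 KO. The groups did not overlap, but the highest WT and the lowest Runx1 KO library lay close together. The log2 change of 0.43 (SE 0.12) passed narrowly, at a limma adjusted p of 0.0447. It did not pass without WT replicate 1, WT replicate 3, Runx1 KO replicate 2 or Runx1 KO replicate 3, with adjusted p values up to 0.125.

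Itgb1 (ENSMUSG00000025809; chromosome 8, 128685654 to 128733200, plus strand), the shared beta partner of these chains, was at 8165, 8718 and 8208 in the WT libraries and at 8577, 8736 and 9027 in those labelled Runx1 KO. The groups overlapped. The log2 change was 0.07 with a 95% interval from -0.06 to 0.20 (limma adjusted p 0.382), so a change of the size measured for Itga4 lies outside this interval. Itgav (ENSMUSG00000027087; chromosome 2, 83724397 to 83806916, plus strand) was at 741, 806 and 897 in the WT libraries and within 753 to 759 in those labelled Runx1 KO. Its log2 change was -0.10, with a 95% interval from -0.31 to 0.10 (limma adjusted p 0.425).

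Itgam (ENSMUSG00000030786; chromosome 7, 128062640 to 128118491, plus strand) encodes the alphaM chain, CD11b, a standard surface marker of neutrophils, monocytes and macrophages; its window above holds the PU.1 core on each strand. It had 3757, 2561 and 2160 normalised reads in the WT libraries and 1136, 559 and 568 in those labelled Runx1 KO. Even the highest Runx1 KO library, replicate 1, was below the lowest WT library. The means of 2826 ± 831 and 754 ± 331 (SD, n = 3) differed by a factor of 3.75, the largest fall among the 10 chains, with a log2 change of -1.95 (SE 0.31, limma adjusted p 0.00769). The call was kept when each library was left out, at log2 changes from -2.28 to -1.72. In the reference annotation 68.7% of the exon bases of Itgam also belong to Gm49368, another gene model on the same strand that was listed at 0.991 to 4.95 normalised reads. How reads in the shared exons were assigned is not given in the sources used here, so the level of Itgam is uncertain. Its ratio between groups does not depend on the length used, but whether it depends on the assignment of reads was not tested.

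Itgb2 (ENSMUSG00000000290; chromosome 10, 77530252 to 77565708, plus strand) encodes beta2, CD18, the obligate partner of alphaL and alphaM. It had 15623, 10918 and 10954 normalised reads in the WT libraries and 7333, 4950 and 4638 in those labelled Runx1 KO. The order of the libraries resembled that of Itgam, with WT replicate 1 highest and Runx1 KO replicates 2 and 3 lowest. The mean fell from 12498 ± 2706 to 5641 ± 1474 (SD, n = 3), a factor of 2.22 and a log2 change of -1.16 (SE 0.21, limma adjusted p 0.0104). The call was kept when each library was left out, at log2 changes from -1.36 to -0.99.

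Itgal (ENSMUSG00000030830; chromosome 7, 127296260 to 127335138, plus strand) encodes alphaL, CD11a, carried by most leukocytes. Its values were 11174, 9113 and 10784 in the WT libraries and 9116, 7110 and 6624 in those labelled Runx1 KO, so that WT replicate 2 and Runx1 KO replicate 1 were almost equal. The log2 change was -0.45 with a 95% interval from -0.77 to -0.14, and did not pass (limma adjusted p 0.0513, unadjusted p 0.0114 over 3 against 3 libraries in the limma fit). It passed in DESeq2 on the recovered reads (-0.45, adjusted p 0.00781) but not in edgeR (-0.43, adjusted p 0.0645). Without Runx1 KO replicate 1 it was -0.59 and passed, at a limma adjusted p of 0.0107.

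Itgb7 (ENSMUSG00000001281; chromosome 15, 102215995 to 102231944, minus strand) encodes the beta chain that gives alpha4 its gut-homing partner and is present on mast cell progenitors and lymphocytes. It was at 2508, 1651 and 1997 in the WT libraries and at 1544, 1119 and 1119 in those labelled Runx1 KO. The groups did not overlap, although Runx1 KO replicate 1 came near to WT replicate 2. The log2 change was -0.70 (SE 0.18, limma adjusted p 0.0359). It did not pass without WT replicate 1, WT replicate 3, Runx1 KO replicate 2 or Runx1 KO replicate 3, where the adjusted p reached 0.122.

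Itgb5 (ENSMUSG00000022817; chromosome 16, 33829665 to 33949338, plus strand) encodes a partner of alphav in a vitronectin receptor. It had 781, 827 and 1022 normalised reads in the WT libraries and 614, 524 and 670 in those labelled Runx1 KO. Every Runx1 KO library was lower than every WT library, with a log2 change of -0.54 (SE 0.13, limma adjusted p 0.0317). The call was lost with scaling to library totals (adjusted p 0.0656) and without WT replicate 2, WT replicate 3, Runx1 KO replicate 1 or Runx1 KO replicate 2 (adjusted p up to 0.108).

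The other chains of the integrin family give the setting for these changes. Of 17 further alpha and beta genes, 15 were listed and 13 tested, and 5 passed, 2 higher and 3 lower (38.5%, against 21.9% of all genes), with a median log2 change of -0.34. Itgb2l, a relative of Itgb2 in the mouse, had 7845, 5158 and 4256 normalised reads in the WT libraries and 219, 53.5 and 50.7 in those labelled Runx1 KO. This was the largest change of any integrin gene tested, a log2 change of -6.03 (SE 0.55, limma adjusted p 0.00153). Its transcripts shared no run of 50 bases with those of Itgb2 in the reference. Itga9, which encodes a beta1 partner for tenascin and osteopontin, rose from 384, 371 and 324 to 883, 1069 and 911, a log2 change of 1.40 (SE 0.11, limma adjusted p 0.00105). The 3 other called chains, named after their values were seen, were Itga2b (0.76), the platelet alphaIIb chain, Itga1 (-0.99), which encodes a collagen-binding chain, and the weakly expressed Itga3 (-0.96). Leaving out Runx1 KO replicate 2 ended the call of Itga1 (adjusted p 0.0589), and 4 of the 6 such fits ended that of Itga2b (adjusted p 0.0929 without WT replicate 1, 0.109 without WT replicate 2, 0.0768 without Runx1 KO replicate 1 and 0.128 without Runx1 KO replicate 2). The call of Itga3 was lost without any 1 of the libraries and in 5 of 9 settings that kept them all (adjusted p up to 0.190). The other alpha partners of beta2, also named after their values were seen, did not pass: Itgax went from 968, 1216 and 1077 to 909, 398 and 621, and Itgad from 177, 332 and 335 to 78.5, 65.4 and 280. These neighbouring genes shared 8.02% of the 50-base runs of Itgax and 8.43% of those of Itgad, so their separate values are uncertain.

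**Figure D2:**
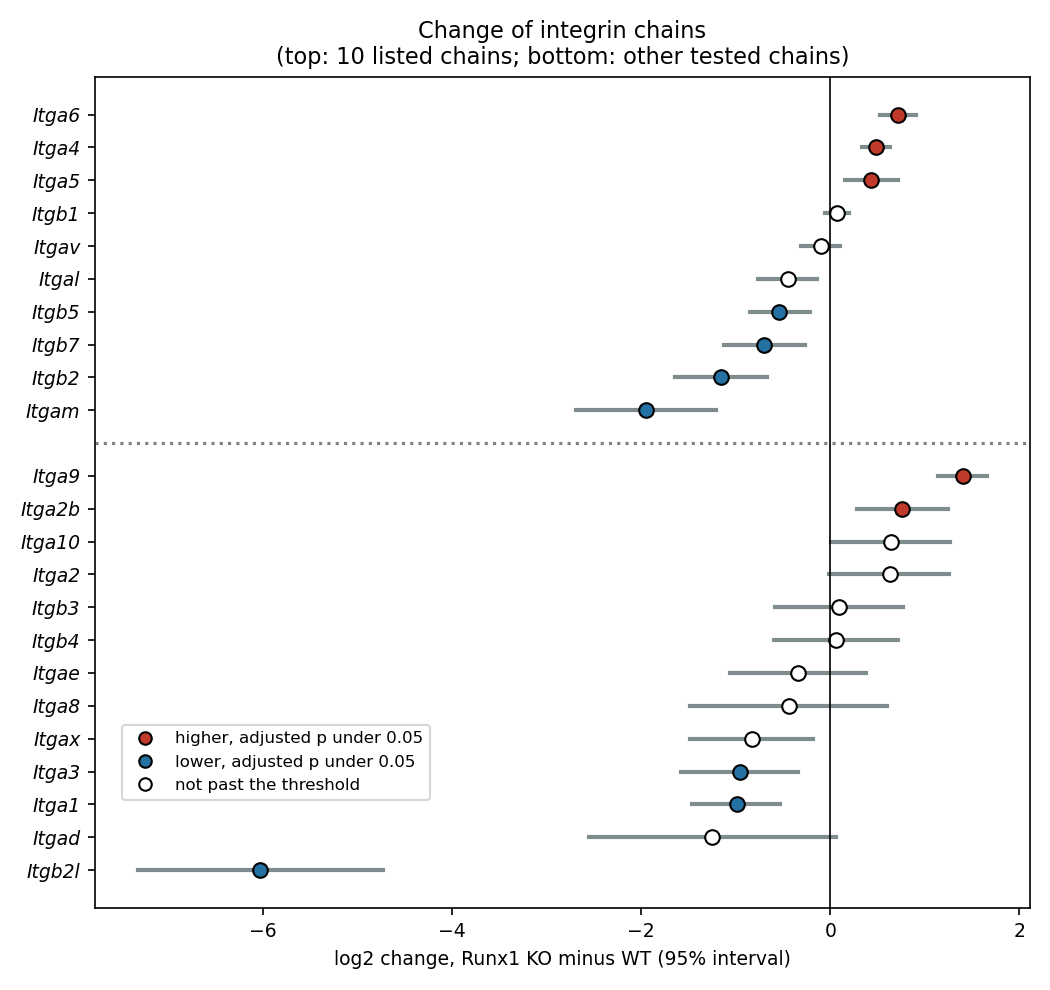
Log2 change from WT to Runx1 KO (horizontal axis, with 95% intervals from limma) of the 10 listed chains above the dotted line and of the 13 other tested integrin chains below it; red (higher) and blue (lower) circles passed an adjusted p of 0.05 and open ones did not. The listed chains run from -1.95 for Itgam to 0.72 for Itga6, while Itgb2l at -6.03, Itga9 at 1.40 and, narrowly, Itga2b at 0.76 lie outside that range.

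Levels of different genes were compared as normalised reads per kb of exon, taking the union of a gene's exons. In the WT libraries Itgb2 was the highest of the 10 at 4095 ± 887 per kb, then Itgb1 (2049 ± 75.4) and Itgal (1577 ± 167). Itgb7 (741 ± 156), Itga4 (684 ± 23.6) and Itgam (563 ± 165) followed, and these 3 overlapped in their libraries. Itga5 (364 ± 39.0) and Itga6 (298 ± 21.5) came next, with Itgb5 (247 ± 36.0) overlapping Itga6, and Itgav was the lowest at 75.8 ± 7.29 (SD, n = 3 throughout). In the libraries labelled Runx1 KO the ranges of Itgb1 (2151 ± 56.0 per kb) and Itgb2 (1848 ± 483) overlapped. Itgal (1159 ± 201) and Itga4 (957 ± 52.4) followed, each apart from its neighbours. Itga5 (494 ± 71.5), Itga6 (493 ± 36.1) and Itgb7 (455 ± 88.6) overlapped, and Itgam fell to the ninth place of the 10 at 150 ± 65.8, overlapping Itgb5 (170 ± 20.7), above Itgav (70.3 ± 0.296). The place of Itgam depends on the length used. All its reads were also divided by only the 1574 exon bases not shared with Gm49368, as if none lay in shared exons. This gave 1796 ± 528 per kb in WT and 479 ± 210 in Runx1 KO, which would put it beside Itgal in WT. Reads over those bases alone were not counted. With the length of the longest transcript, Itga6 was at 625 per kb in WT and 1032 in Runx1 KO.

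**Figure D3:**
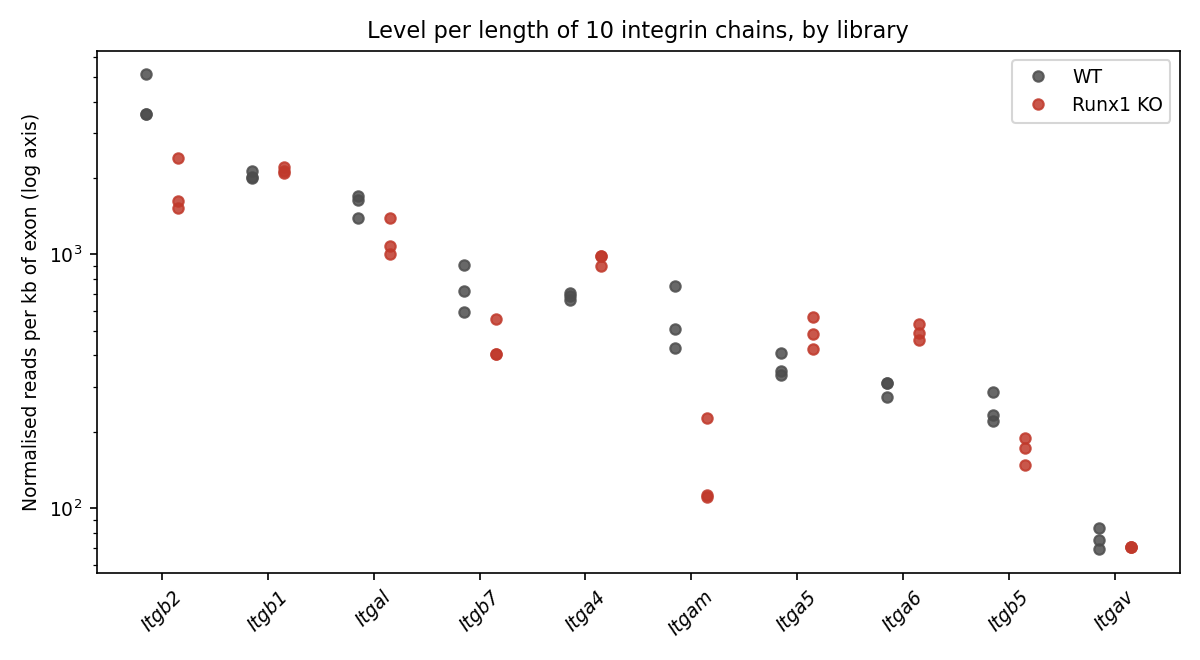
Normalised reads per kb of exon (log axis) of the 10 chains in each library, ordered by the WT mean, with WT in grey and Runx1 KO in red. Itgb2 is highest in WT, while in Runx1 KO its libraries (1520 to 2403) reach down past those of Itgb1 (2102 to 2212); the points for Itgam would lie higher if its shared exons were left out of its length.

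Shares were compared among the beta chains, as a description without a test. Itgb1 made up 19.3%, 27.0% and 26.0% of the summed levels per kb of all listed beta chains in the WT libraries and 37.9%, 47.0% and 49.1% in those labelled Runx1 KO. The share of Itgb2 went from 49.4%, 45.2% and 46.3% to 43.3%, 35.6% and 33.7%, and that of Itgb2l from 17.5%, 15.1% and 12.7% to 0.911%, 0.272% and 0.260%. These 3 shares did not overlap between the groups, except that of Itgb2 when lengths were those of the longest transcript. A share depends on the whole sum. The level of Itgb1 itself changed little (means of 2049 and 2151 per kb in WT and Runx1 KO). Those of Itgb2 (4095 and 1848) and Itgb2l (1331 and 24.9) fell. The share of Itgb7 overlapped between the groups, at 8.52% ± 0.901 and 9.29% ± 0.652 (SD, n = 3), but not with the longest transcript, at 7.88% ± 0.869 and 9.13% ± 0.647.

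Ratios between chains within a library do not depend on the size factor, and 7 were compared with an exact permutation test over 3 against 3 libraries (two-sided), which cannot give a p under 0.1. Of the 7 ratios, 6 did not overlap between the groups and reached that smallest p (0.117 after Benjamini-Hochberg adjustment over the 7), so none could pass 0.05. This count is a description. The chains were chosen with earlier results known, their ratios follow from the values of each chain given above, and no share over other pairs of genes was taken. The level of Itgal over that of Itgam was 2.27, 2.72 and 3.82 in the WT libraries and 6.14, 9.73 and 8.92 in those labelled Runx1 KO, a log2 difference of 1.50. Every Runx1 KO library had a higher ratio than every WT library. With the same reads divided by the unshared length of Itgam, the ratios were 0.713, 0.853 and 1.20 against 1.92, 3.05 and 2.79. The log2 difference could not change, since a gene's length is the same in every library.

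The summed levels of Itga4, Itga5, Itga6 and Itgav over that of Itgb1 were 0.712, 0.692 and 0.679 in the WT libraries and 0.915, 0.951 and 0.942 in those labelled Runx1 KO. The ratio varied little within a group and differed by 0.43 on the log2 scale. The ratio of Itgb7 to Itgb1, the beta chains that compete for alpha4, went from 0.453, 0.279 and 0.358 to 0.265, 0.189 and 0.183. The ratio of Itgb5 to Itgav went from 3.19, 3.10 and 3.44 to 2.46, 2.09 and 2.69. Itga4 over Itga5 overlapped between the groups (log2 difference 0.05, exact permutation p 0.7), and Itga4 over Itga6 had a log2 difference of -0.24, which was -0.14 without Runx1 KO replicate 1. The ratio of Itgal plus Itgam to Itgb2 had a log2 difference of 0.44, but of 0.10 with the same reads over the unshared length of Itgam. It thus rests on how the reads of Itgam were assigned.

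**Figure D4:**
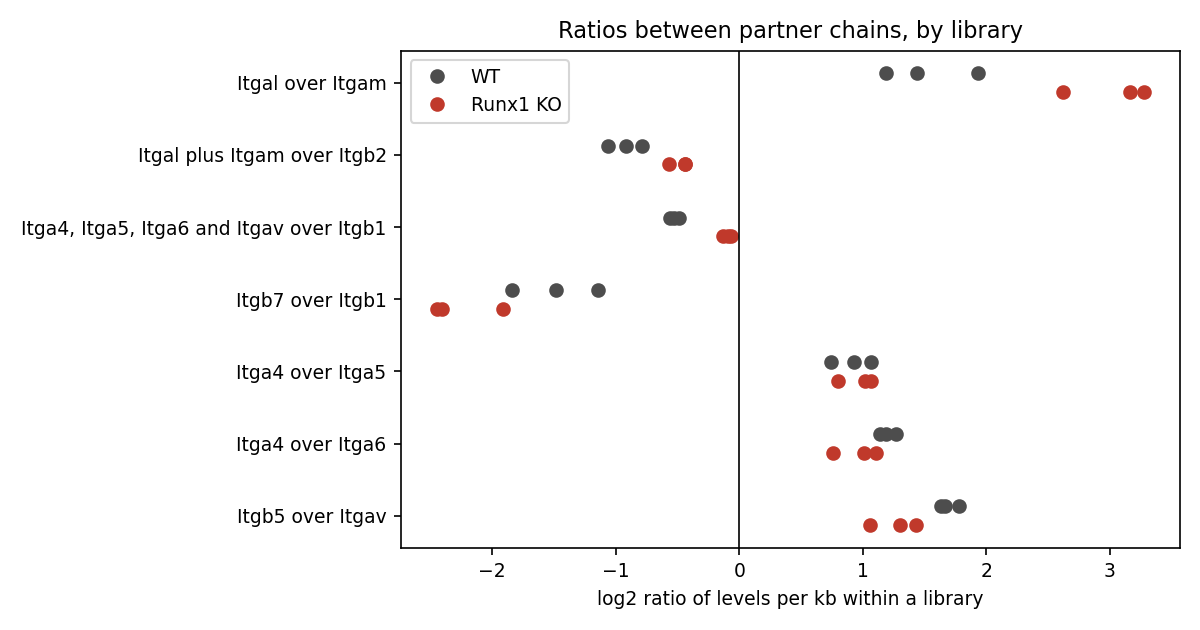
Log2 ratio of levels per kb between partner chains (horizontal axis) in each library, with WT in grey and Runx1 KO in red. The groups are apart in every row but Itga4 over Itga5, and the widest gap is that of Itgal over Itgam, at 1.19 to 1.93 in WT and 2.62 to 3.28 in Runx1 KO.

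Several lists of mature-cell markers also held genes that fell; 11.3% of all genes tested were called lower and 10.6% higher. Of 10 late neutrophil markers, which encode secondary and tertiary granule and other maturation proteins, 7 fell and 0 rose, and none was at 0 in any library. Their summed level was 301361, 222671 and 188375 normalised reads in the WT libraries and 99568, 37334 and 32907 in those labelled Runx1 KO. Its order over the 6 libraries was that of Itgam, except that Runx1 KO replicates 2 and 3 changed places. For Itgb2 and Itgb7, WT replicates 2 and 3 changed places relative to the sum. Itgb5 was highest in replicate 3 of each group, where the sum was lowest. Of 7 monocyte markers, 3 fell, with sums from 61249 to 88409 in WT and from 33988 to 57061 in Runx1 KO. Of 9 B-lymphoid markers, 7 fell, with sums from 6463 to 29240 and from 1041 to 2948. The monocyte and B-lymphoid sums both ordered the 6 libraries as Itgb2 did. Itgb7 had that order too, apart from its equal values in Runx1 KO replicates 2 and 3. The order of libraries thus does not single out the neutrophil list. In bulk RNA, fewer cells of a type and less RNA per cell cannot be told apart, and the part of these cells in the falls of Itgam, Itgb2, Itgb7 and Itgb5 was not tested. Without WT replicate 1 and Runx1 KO replicate 1 together, a setting chosen after the data were seen, 8 of the 10 chains passed, 3 higher and 5 lower. Over all genes 3752 were called in that setting, against 3370 with all 6 libraries. The log2 changes were -2.06 for Itgam and -1.19 for Itgb2. This setting is no test of the part of these cells, since their markers still differed between the remaining libraries.

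**Figure D5:**
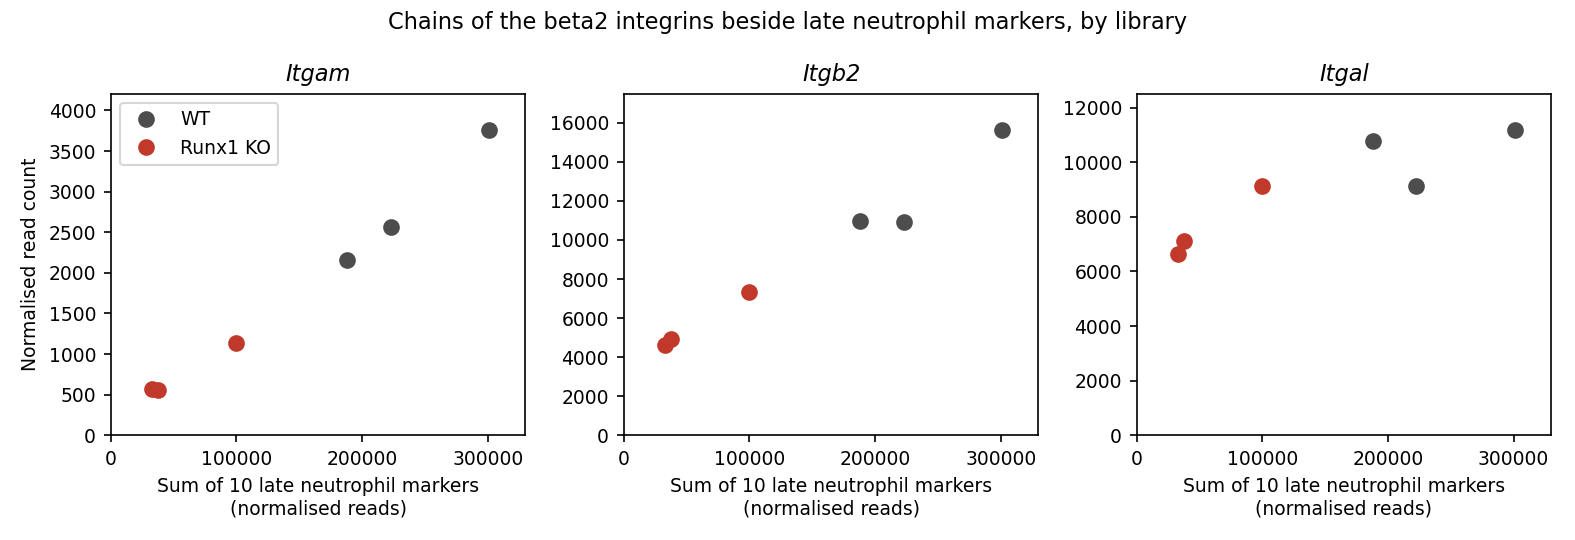
Normalised read count of Itgam, Itgb2 and Itgal (vertical axes) against the summed level of 10 late neutrophil markers (horizontal axis, normalised reads), 1 point per library, with WT in grey and Runx1 KO in red. For Itgam and Itgb2 the WT libraries lie to the upper right and the Runx1 KO libraries to the lower left, with Runx1 KO replicate 1 nearest to WT; for Itgal that library (9116) is level with WT replicate 2 (9113). No correlation is given, since the points form separate groups.

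The other marker lists were read in the same way, beside the same shares of all genes (10.6% higher, 11.3% lower). Of 5 progenitor markers 4 rose, among them Kit, with sums from 28439 to 31985 in WT and from 41990 to 44861 in Runx1 KO. Of 4 early granule markers, 2 fell, with sums from 145011 to 169299 in WT and from 130421 to 134651 in Runx1 KO. Of 7 megakaryocyte markers 6 were listed, 5 tested and 2 called higher; their sums overlapped, at 1902 to 2306 and 2266 to 3216, and Gp6 was at 0 in a library. Mast cell and basophil markers, 9 of 10 listed and 8 tested, fell in 5 cases and rose in 0, with sums from 12393 to 16835 and from 9751 to 12132, and Tpsb2 was at 0 in a library. The sum hides unlike changes. The 5 were Prss34 (log2 change -9.26), Fcer1a (-6.04), Mcpt8 (-3.64), Cma1 (-2.48) and Ms4a2 (-1.40). Hdc, the largest gene of the sum (means of 6503 in WT and 8021 in Runx1 KO), did not pass, nor did Cpa3 and Cd200r3, and these had higher means in Runx1 KO. Sums of the macrophage (6 genes), T-lymphoid (7), dendritic (5) and erythroid (7) lists overlapped between the groups, with 1, 0, 0 and 2 genes called lower and 0 higher. The 2 erythroid genes were Hba-a1 (log2 change -2.18) and Hbb-bt (-2.68), while the other 5 of that list did not pass. The NK sum (5 genes, 1 lower) was 5694 to 6816 in WT and 4119 to 4549 in Runx1 KO. Most of it was Nkg7, the 1 gene called, at 5450, 6523 and 5547 in WT and 3750, 4463 and 4163 in Runx1 KO. The other 4 NK genes did not pass. The eosinophil sum (4 genes, 1 higher, 1 lower) was 12085 to 19508 in WT and 7474 to 11543 in Runx1 KO. The endothelial and stromal sum (9 of 11 listed, 8 tested, 2 higher and 4 lower) was 1434 to 1691 in WT and 1181 to 1223 in Runx1 KO. The part of these cells in the rises of Itga4, Itga5 and Itga6 was not tested.

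Integrins work through a cytoplasmic machinery that switches them on and ties them to actin. Of 35 genes for it, 29 were tested and 15 passed, 2 higher and 13 lower (51.7%, against 21.9% of all genes), with a median log2 change of -0.30. Actn1, which encodes an actin crosslinker, fell from 5390, 4045 and 3402 to 1495, 1214 and 1250 normalised reads (log2 change -1.68, SE 0.17, limma adjusted p 0.00209). Flna, which encodes filamin A, a competitor of talin on beta tails, fell from 53795, 50028 and 42668 to 24797, 24356 and 21245 (-1.05, SE 0.10). Nedd9, a docking protein downstream of integrins, fell by 1.13 on the log2 scale and Tln2, a weakly expressed talin, by 1.08. In each of these genes every Runx1 KO library lay below every WT library. Leaving out WT replicate 3, Runx1 KO replicate 2 or Runx1 KO replicate 3 ended the call of Nedd9 (adjusted p up to 0.0910), and 5 of 6 such fits, all but the one without WT replicate 3, ended that of Tln2 (adjusted p up to 0.119). The number of calls in this list fell to 6 without Runx1 KO replicate 2 and to 6 without Runx1 KO replicate 3, and to 9 and 8 without WT replicates 2 and 3.

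Of 30 genes for integrin ligands and counter-receptors, 17 were tested and 6 passed, 3 in each direction (35.3%, against 21.9% of all genes), with a median log2 change of 0.07. Cdh1, which encodes E-cadherin, fell from 279, 192 and 226 to 55.4, 21.8 and 20.9 (log2 change -2.92, SE 0.38, limma adjusted p 0.00389), and Spp1, which encodes osteopontin, from 339, 217 and 185 to 107, 113 and 76.6. Tnc, which encodes tenascin-C, was at 42.5, 18.2 and 18.2 in WT and at 2.09, 0.991 and 0.995 in Runx1 KO, 4 reads in all (limma adjusted p 0.00370). Jam3, a junctional adhesion molecule bound by Mac-1, rose from 10.9, 12.1 and 19.2 to 43.9, 55.5 and 47.7, but 36.2% of its exon bases overlap an antisense gene, and the counting is not stated to use strand. For Spp1, 18.8% of the exon bases belong also to another gene model on the same strand, and its call was lost without Runx1 KO replicate 3 (adjusted p 0.0519).

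Of 12 genes for rolling and homing, all tested, 3 rose and 2 fell (41.7%, against 21.9% of all genes), with a median log2 change of -0.19. Selp, which encodes P-selectin, rose from 278, 249 and 341 to 1058, 847 and 1107 (log2 change 1.79, SE 0.15, limma adjusted p 0.00128). Esam, an endothelial adhesion molecule also found on stem cells, rose from 78.2, 76.7 and 155 to 340, 299 and 298, and Sele, which encodes E-selectin, from 44.5, 30.3 and 33.6 to 66.9, 96.1 and 111. Cxcr4, the CXCL12 receptor that retains progenitors and neutrophils in marrow, fell from 9649, 5195 and 5608 to 2868, 2670 and 2534 (log2 change -1.29, SE 0.22). The call of Sele was lost without Runx1 KO replicate 2 or 3 (adjusted p 0.0648 and 0.0539), and 3 genes of this list passed without the one and 3 without the other.

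The genes most like the chains at either end were found by Pearson's r of log2 values over the 6 libraries, given as a description, since the 6 points fall into the 2 groups and share their libraries. Closest to Itga6 were Nrg2 (r = 0.9980, log2 change 0.52), Acadm (r = 0.9971, 0.15) and Tmprss7 (r = 0.9970, 2.28). The size of the change thus differed among genes with a like pattern. Acadm did not pass (limma adjusted p 0.0804), and Tmprss7 was weakly expressed, at 7.91, 10.1 and 5.76 normalised reads in the WT libraries. Closest to Itgam were Ppm1m (r = 0.9990), Alox5 (r = 0.9986, -2.18) and Siglece (r = 0.9985, -1.42). Alox5 encodes 5-lipoxygenase, which makes leukotrienes, and Siglece a sialic acid receptor of neutrophils and monocytes.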

How the data were processed

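Poly-A RNA of c-Kit-positive bone marrow cells was sequenced from stranded libraries on a HiSeq2500, per the labels' protocols. The submitters' processing notes name HISAT2, HTSeq 0.9.1 and the builds mm10 and GRCm38; annotation, strand setting and normalization are not given in the sources used here. The deposited values are a signal, gene reads scaled by a size factor per library, as worked out from the values: 100% of them were whole multiples of the library's smallest positive value (tolerance 0.001), and the steps equalled DESeq2-type median-of-ratios factors. The lowest listed total over the 6 libraries was 10 reads.

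Symbols came from a supplied table (20077 of 20097 identifiers matched), and positions and exon lengths from GENCODE M21 on GRCm38. limma 3.58.1 (R 4.3.3) was fitted to log2(value + 1) with group as the term and a mean trend, two-sided; p-values were adjusted by Benjamini-Hochberg across the 15410 genes that passed filterByExpr (minimum count 10, minimum total 15). Log2 changes are on that log2(value + 1) scale. edgeR 4.0.16 and DESeq2 1.42.0 were run on the recovered reads as alternatives and called 3261 and 3911 genes. The script was tested on simulated data.

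Genes named are the 10 members, Runx1 and Kit, from each companion list the called genes whose log2 change reached 1 in size (at most 6 by size, or if none, at most 3 called genes), and the 3 genes most like the chain with the largest rise and the chain with the largest fall. Itga1, Itga2b, Itga3, Itgax, Itgad, Itgb6, Itgb8, Fermt3, Vcl, Ilk, Nkg7, Hba-a1 and Hbb-bt lie outside this rule and were named after their values were seen. The same holds for Prss34, Fcer1a, Mcpt8, Cma1, Ms4a2, Hdc, Cpa3 and Cd200r3. Members and lists were chosen with earlier results of these data known.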

Additional observations from a re-analysis of the deposited data

How the results depend on the processing

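In 10 settings that kept all 6 libraries, 6 to 8 of the 10 chains passed and directions did not change; the log2 change of Itgal (-0.45) passed in DESeq2 (-0.45), in limma with the replicate block (-0.45) and in edgeR with the replicate block (-0.44), and that of Itgb5 (-0.54) did not pass with library totals (-0.45). Whether the replicate numbers pair the libraries is not settled by 3 against 3 libraries. Deviations from the group means correlated at 0.29, 0.13 and -0.01 for numbers 1 to 3, and at -0.28 to 0.23 between unlike numbers. WT replicate 2 correlated best with Runx1 KO replicate 3 (0.23). The replicate block in limma gave 3843 called genes, 3 other integrin chains (1 higher), 23 activation and linkage genes (21 lower) and 9 rolling and homing genes (5 lower), and Itga2b did not pass (adjusted p 0.0527). In edgeR with the replicate block, 3 other chains (1 higher) and 9 rolling and homing genes (5 lower) passed. With library totals 1 rolling and homing gene was called lower. Without WT replicate 1 and Runx1 KO replicate 1 together, 3752 genes were called (1720 higher, 2032 lower), Itgal passed at -0.53, Itgb5 stood at -0.63, 1 other integrin chain was higher, and 9 rolling and homing genes passed, 5 of them lower.

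Leaving out a library in turn gave 4 to 7 of the 10 chains (2 to 3 higher, 2 to 4 lower), with 4 without WT replicate 3 and 4 without Runx1 KO replicate 2. Called genes ran from 1349 to 3551 (627 to 1627 higher, 722 to 1924 lower), other integrin chains from 2 to 6 (1 to 3 higher, 1 to 3 lower), activation and linkage genes from 6 to 15 (1 to 2 higher, 4 to 13 lower), ligand genes from 5 to 7, and rolling and homing genes from 3 to 6 (1 to 3 lower). Log2 changes ran from 0.33 to 0.54 for Itga5, -0.59 to -0.36 for Itgal, -0.62 to -0.42 for Itgb5 and -0.85 to -0.54 for Itgb7. These fits have fewer samples. The log2 difference of Itga4 over Itga5, at 0.05, was -0.04 without WT replicate 2 and -0.01 without Runx1 KO replicate 1, and ran from -0.04 to 0.13; the cause was not tested. Under the other definitions of length, levels per kb moved by more than the SD in 13 cases and by less in 27. The 27 include cases that could not move, since the unshared length differs from the exon union for Itgam alone among the 10. With it both group levels of Itgam moved. With the longest transcript those of Itga4, Itga6, Itgal, Itgav and Itgb1 moved in both groups and that of Itga5 in WT.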

Other observations

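Itgb6, the epithelial partner of alphav, was listed at 0.989, 0 and 0.959 normalised reads in the WT libraries and at 9.41, 7.93 and 8.95 in those labelled Runx1 KO, below the filter in every library. Itgb8, another partner of alphav that activates TGF-beta, was at or under 4.04 in all 6 libraries. Fermt3, the blood-cell kindlin that integrins need for activation, was at 10341 to 11470 in WT and 11227 to 11302 in Runx1 KO (log2 change 0.07, 95% interval -0.07 to 0.20), while Vcl, which encodes vinculin, fell from 4127, 4290 and 3535 to 2111, 2280 and 2412 (log2 change -0.81, limma adjusted p 0.00275). These 4 genes were picked after their values were seen.

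Ilk, an integrin-linked kinase also picked after its values were seen, was listed at only 5.23 to 7.96 normalised reads in all 6 libraries; 76.7% of its exon bases overlap Taf10 on the other strand, and how reads there were assigned is not given in the sources used here.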
